A study of Mus musculus with 12 samples.

Results

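The genes described here are 38 genes that mark or serve cardiac fibroblasts, out of 55416 genes in the deposited table. They were listed by symbol, without collagens and small leucine-rich proteoglycans. The list was drawn up with the response of control cells to phenylephrine (PE) already known, so the genes count as chosen by that log2 change, which is given below as a description, with no test. Each symbol matched 1 Ensembl gene. All 38 had a mean value of at least 1 over the libraries and were fitted together with the other genes tested, 21799 in all.

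The cells were cultured neonatal mouse cardiomyocytes, and PE, an alpha1-adrenergic agonist that makes cardiomyocytes grow, was given for 24 hours. The antisense GapmeR used for the knockdown directs RNase H to lincRNA-p21, a long noncoding RNA. Polyadenylated RNA was sequenced in 12 libraries. The groups were PE with the lincRNA-p21 GapmeR (PE knockdown), PBS with that GapmeR (PBS knockdown), PE with a negative-control GapmeR (PE control) and PBS with the negative-control GapmeR (PBS control), with 3 libraries each. Every group had thus received a GapmeR. The labels call the cells cardiomyocytes and name no sort or purity, so the genes below were read in RNA of the whole culture. In such bulk RNA, fewer cells of a type and less RNA per cell cannot be told apart. The labels do not say that replicates came from separate cultures or litters, so each p-value measures only the spread between these libraries.

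Cardiac fibroblasts arise largely from the epicardium, depend on the transcription factor Tcf21 as they form, and build the collagen, microfibril and elastic fibre network around the myocytes. When the heart is stressed or injured they can turn into activated, contractile cells that make other matrix proteins and lose part of their resting programme. Primary cultures of neonatal heart cells usually keep some fibroblasts among the cardiomyocytes.

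Recovered reads in genes ran from 21325485 to 22139681 per library, and mitochondrial genes held 4.33% to 10.7% of them. The target of the knockdown, Trp53cor1 (lincRNA-p21), had 8.56, 9.97 and 8.93 normalised read counts in PE knockdown cells, against 56.0, 34.0 and 34.7 in PE control cells. It had 12.7, 22.6 and 10.1 in PBS knockdown cells, against 59.8, 70.6 and 63.2 in PBS control cells. A normalised read count is the number of reads of a gene divided by the size factor of its library. The log2 change was -2.03 ± 0.30 in PE and -2.10 ± 0.30 in PBS (limma standard error, adjusted p = 9.2e-05 and 2.0e-04). PBS knockdown 2, PE knockdown 1 and PBS control 2 were 3 of the 4 libraries farthest from their groups, with a root mean square log2 distance of 0.373, 0.284 and 0.262, and PBS knockdown 1, the fourth, stood at 0.271. The other 8 libraries stood at 0.153 to 0.204.

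All 3 defining fibroblast markers were detected in every library, but they did not move together with PE. Tcf21 (ENSMUSG00000045680.9, GRCm38 chromosome 10, 22817281 to 22820174, minus strand), the basic helix-loop-helix factor of the fibroblast lineage, had 404, 343 and 351 normalised read counts in PE knockdown cells, against 1008, 1208 and 951 in PBS knockdown cells. It had 423, 400 and 433 in PE control cells and 954, 1108 and 994 in PBS control cells. Every PE library was below every PBS library. Dpt (ENSMUSG00000026574.6, chromosome 1, 164796644 to 164824266, plus strand) encodes dermatopontin, a small matrix protein that binds decorin and collagen fibrils. Its values were 282, 309 and 319 in PE knockdown cells, against 953, 651 and 891 in PBS knockdown cells, and 248, 279 and 279 in PE control cells, against 936, 1083 and 958 in PBS control cells. Here too the PE and PBS libraries did not overlap. Thy1 (ENSMUSG00000032011.6, chromosome 9, 44043384 to 44048579, plus strand), a lipid-anchored surface protein used to sort fibroblasts, went the other way. It had 1049, 745 and 670 normalised read counts in PE knockdown cells, against 381, 412 and 366 in PBS knockdown cells, and 1140, 982 and 1207 in PE control cells, against 435, 718 and 507 in PBS control cells. In knockdown cells Tcf21 fell by 1.52 ± 0.11 and Dpt by 1.44 ± 0.13 on the log2 scale, while Thy1 rose by 1.06 ± 0.17 (limma, adjusted p = 6.8e-09, 9.8e-08 and 7.3e-05). RNA of all 3 markers was thus present, while their direction with PE was not shared.

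**Figure D1:**
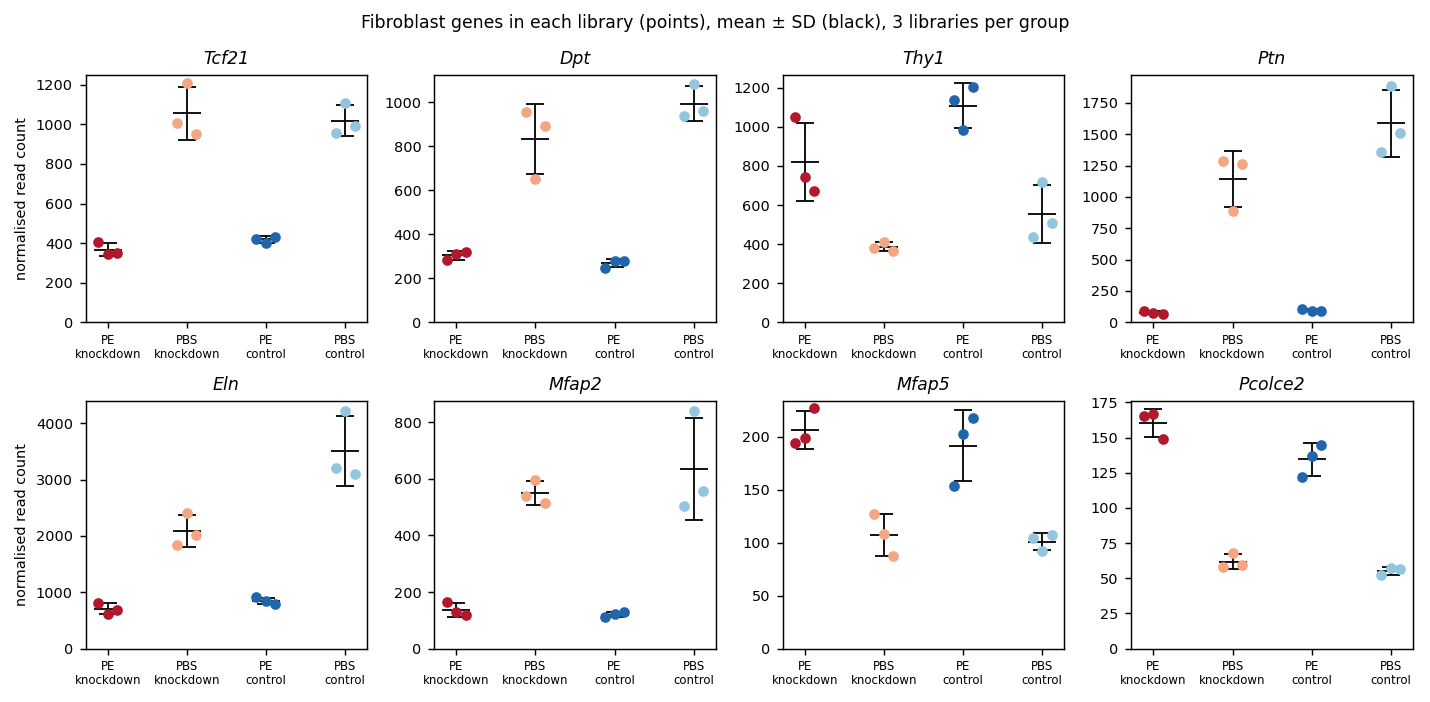
Normalised read counts (y axis, linear, from 0) of 8 fibroblast genes in each library (points), with the mean and SD in black, for PE knockdown, PBS knockdown, PE control and PBS control cells from left to right. Tcf21, Dpt, Ptn, Eln and Mfap2 are lower in the PE libraries and Thy1, Mfap5 and Pcolce2 are higher, as for Tcf21 at 343 to 404 in PE knockdown cells against 951 to 1208 in PBS knockdown cells.

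Since Tcf21 belongs to a family that binds E-boxes, the promoters of the gene set were searched for the E-box CAGCTG, which reads the same on both strands, and for the AP-1 motif TGACTCA and the TEAD motif GGAATG on both strands. The window was the 250 bases before each RefSeq start in GRCm38.p6, and a gene counted once if any of its starts had the motif. RefSeq entries matched 22 of the 38 genes. The E-box was found in 8 of these 22 (36.4%), against 14.7% of 27025 genes, a difference that was not tested. By call with PE in knockdown cells, it was in 6 of 15 matched genes that fell, 1 of 3 that rose and 1 of 4 not called. The 8 were Dpt, Fbln1, Gsn, Islr, Pcolce and Steap4, which fell with PE in knockdown cells, Pcolce2, which rose, and Cilp, which could not be measured well. The AP-1 motif was in 0 of 22, against 5.16% of all genes. The TEAD motif was in 3 of 22 (13.6%, Abca8a, Dpep1 and Mfap2), against 14.4%. A match is a run of letters and not a measured binding site. The sequences below are shown because the same E-box stands in promoters of genes that moved in opposite directions, among them the paralogues Pcolce and Pcolce2. They run 5′ to 3′ towards the start, with the E-box in capitals, and each holds 1 match to the motifs searched. The Dpt window is chr1:164796413-164796662 (plus strand), Islr chr9:58158555-58158804 (minus), Steap4 chr5:7960222-7960471 (plus), Pcolce chr5:137611405-137611654 (minus) and Pcolce2 chr9:95637378-95637627 (plus).
Dpt: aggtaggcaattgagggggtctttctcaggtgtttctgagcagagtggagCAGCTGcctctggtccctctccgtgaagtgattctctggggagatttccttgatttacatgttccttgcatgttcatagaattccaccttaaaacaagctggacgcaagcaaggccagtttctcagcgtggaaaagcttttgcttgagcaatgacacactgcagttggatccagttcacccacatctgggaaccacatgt
Islr: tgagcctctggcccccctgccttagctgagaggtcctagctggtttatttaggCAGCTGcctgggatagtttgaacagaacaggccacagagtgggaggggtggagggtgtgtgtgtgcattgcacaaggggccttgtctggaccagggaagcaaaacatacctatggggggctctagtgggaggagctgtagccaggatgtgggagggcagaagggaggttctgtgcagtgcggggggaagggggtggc
Steap4: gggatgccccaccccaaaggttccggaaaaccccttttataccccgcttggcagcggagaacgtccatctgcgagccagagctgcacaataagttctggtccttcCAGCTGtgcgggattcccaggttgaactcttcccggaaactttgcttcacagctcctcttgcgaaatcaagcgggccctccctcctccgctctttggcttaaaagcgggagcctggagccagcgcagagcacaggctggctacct
Pcolce: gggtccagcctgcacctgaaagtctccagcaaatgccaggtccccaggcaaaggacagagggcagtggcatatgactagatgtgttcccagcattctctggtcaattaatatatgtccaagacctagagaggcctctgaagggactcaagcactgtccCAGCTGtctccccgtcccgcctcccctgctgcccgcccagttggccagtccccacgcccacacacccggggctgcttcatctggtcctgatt
Pcolce2: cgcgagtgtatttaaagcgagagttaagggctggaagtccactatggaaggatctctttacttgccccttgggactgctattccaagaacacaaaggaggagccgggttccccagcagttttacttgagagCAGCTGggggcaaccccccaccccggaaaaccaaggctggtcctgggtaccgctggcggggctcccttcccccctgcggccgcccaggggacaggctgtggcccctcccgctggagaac
The first base of the E-box lies 200 bases before the start in Dpt, 197 in Islr, 145 in Steap4, 92 in Pcolce and 119 in Pcolce2.

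The main question for these genes was how they answered PE. In knockdown cells 24 of 38 fell and 6 rose with PE, and 8 were not called (limma, Benjamini-Hochberg adjusted p below 0.05). The genes were not chosen by this contrast, and its libraries are separate from those of control cells. The treatment is the same, though, and its effect in control cells was known when the genes were listed. These counts are therefore not free of that choice. Of all genes tested, 27.4% were called, 14.0% lower and 13.4% higher. The median log2 change was -0.87 for the gene set, against 0.00 for all genes tested. Among the 24, the fall was at least 2-fold on this scale for 17 genes, at least 4-fold for 10 and at least 8-fold for 5. PE libraries lay wholly below PBS libraries for 24 genes and wholly above for 6, against 19.1% and 19.6% of all genes. In control cells the median was -0.99, which is a description only. The sum over the 38 genes, in which Vim and Fn1 have the highest values, did not separate the groups. It was 105878 to 120858 in PE knockdown cells and 109533 to 142213 in PBS knockdown cells.

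**Figure D2:**
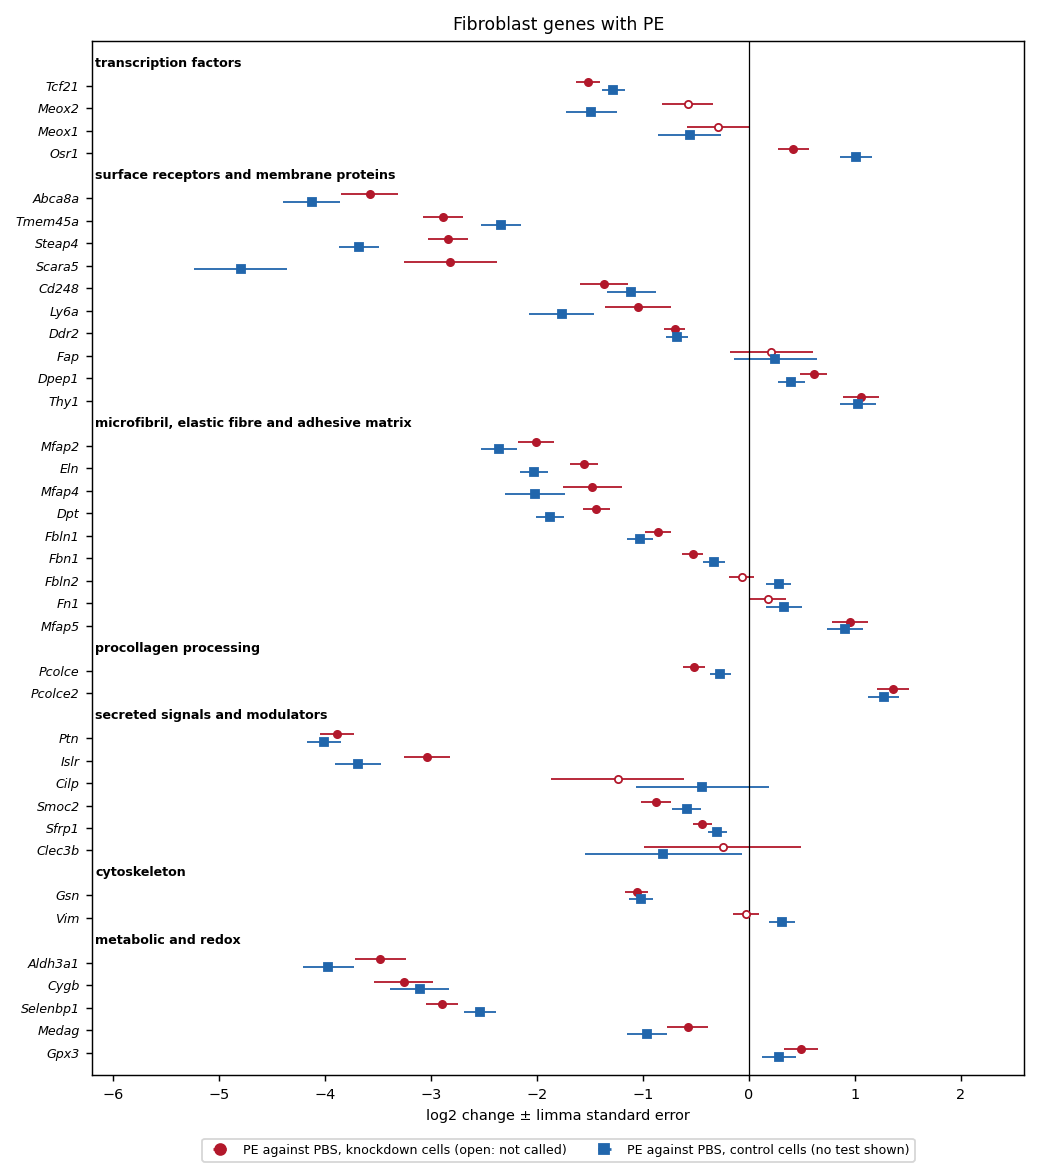
Log2 change with PE against PBS (x axis, ± limma standard error) of all 38 genes, ordered by role, in knockdown cells (red circles, open where not called) and in control cells (blue squares, no test). Most points lie left of 0, down to -3.89 for Ptn in knockdown cells, and 6 filled red points lie right of it, up to 1.36 for Pcolce2.

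Among the transcription factors, only Tcf21 fell in knockdown cells. The homeobox genes Meox1 and Meox2, of which Meox1 has been tied to fibroblast activation in mouse hearts, were low. Meox2 had 30.0, 23.9 and 17.9 normalised read counts in PE knockdown cells, against 43.5, 28.9 and 35.8 in PBS knockdown cells, and 35.5, 26.6 and 25.0 in PE control cells, against 82.5, 74.6 and 90.6 in PBS control cells. The groups overlapped in knockdown cells and did not in control cells, where PBS was high. Its log2 change in knockdown cells was -0.58 ± 0.24 (limma, adjusted p = 0.087), and without PBS knockdown 2 or PE knockdown 1 it passed (adjusted p = 0.047 and 0.043). Meox1 had 35.3, 25.9 and 22.8 in PE knockdown cells, against 33.5, 48.8 and 23.8 in PBS knockdown cells. These overlapped, as did 42, 34 and 27.1 in PE control cells, against 38, 72.6 and 46.2 in PBS control cells. Osr1, a zinc finger factor of embryonic mesenchyme, had 318, 284 and 260 in PE knockdown cells, against 180, 239 and 226 in PBS knockdown cells. It was called higher (log2 0.42 ± 0.15, limma, adjusted p = 0.047). That call sat at the threshold: leaving out PBS knockdown 1 or 3, PE knockdown 1 or 2, PBS control 3 or any PE control library ended it (adjusted p = 0.058 to 0.19).

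Genes of surface and membrane proteins held some of the deepest falls. Abca8a (ENSMUSG00000041828.16, chromosome 11, 110025634 to 110095978, minus strand), an ABC transporter of lipids, had 4.28, 5.98 and 6.95 normalised read counts in PE knockdown cells, against 91.6, 65.1 and 81.6 in PBS knockdown cells. In PE control cells it had 10.8, 7.44 and 16.3, against 222, 215 and 192 in PBS control cells. The PE groups did not overlap the PBS groups, and both knockdown groups lay below their control group. Its log2 change with PE in knockdown cells was -3.58 ± 0.27 (limma, adjusted p = 9.5e-09). Tmem45a, a transmembrane protein gene, had 34.3, 32.9 and 35.7 in PE knockdown cells, against 310, 201 and 286 in PBS knockdown cells. In PE control cells it had 68.9, 42.5 and 63.0, against 296, 290 and 292 in PBS control cells. The lowest PBS library held several times the highest PE library. Steap4, a metalloreductase that reduces iron and copper, had 17.1, 23.9 and 23.8 in PE knockdown cells, against 160, 143 and 176 in PBS knockdown cells, and 22.6, 22.3 and 30.4 in PE control cells, against 300 to 378 in PBS control cells. Tmem45a fell by 2.89 ± 0.19 and Steap4 by 2.84 ± 0.19 (limma, adjusted p = 1.6e-09 and 2.5e-09). Scara5, a scavenger receptor that takes up ferritin, was seen in few reads: 9 in all PE knockdown libraries together, against 91 in PBS knockdown libraries, a ratio of 0.111 after scaling (95% exact interval 0.0491 to 0.220). That interval covers counting error only. In control cells Scara5 had 4 reads with PE, against 179 with PBS, a ratio of 0.0248, which is a description only.

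Of the other membrane genes, Cd248 encodes endosialin, a stromal glycoprotein, and had 364, 197 and 204 normalised read counts in PE knockdown cells, against 484, 879 and 592 in PBS knockdown cells. No PE library reached the lowest PBS library. Cd248 fell by 1.37 ± 0.23, Ly6a (the surface antigen Sca-1 of stromal progenitors) by 1.05 ± 0.31 and Ddr2 (a receptor tyrosine kinase for fibrillar collagen) by 0.70 ± 0.10 with PE in knockdown cells (limma, adjusted p = 1.3e-04, 0.014 and 2.6e-05). The call of Ly6a was lost without PE knockdown 1 (adjusted p = 0.082). Dpep1, a membrane dipeptidase, had 218, 225 and 226 normalised read counts in PE knockdown cells, against 161, 141 and 137 in PBS knockdown cells. It rose by 0.61 ± 0.13 (limma, adjusted p = 0.0013). The protease gene Fap, a usual marker of activated fibroblasts, was low at 12.8, 15 and 11.9 in PE knockdown cells, against 17.2, 6.33 and 12.8 in PBS knockdown cells, and the groups overlapped. Its log2 change was 0.21 ± 0.39.

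The microfibril and elastic fibre genes split. Eln (ENSMUSG00000029675.13, chromosome 5, 134702593 to 134747323, minus strand), which encodes tropoelastin, had 816, 619 and 691 normalised read counts in PE knockdown cells, against 1844, 2398 and 2022 in PBS knockdown cells. In PE control cells it had 907, 844 and 799, against 3207, 4216 and 3102 in PBS control cells. No PE library reached the lowest PBS library. Mfap2, a microfibril glycoprotein that binds fibrillin and tropoelastin, had 166, 128 and 119 in PE knockdown cells, against 539, 597 and 516 in PBS knockdown cells. Its paralogue Mfap5, which also binds fibrillin, moved in the opposite direction, with 194, 199 and 227 in PE knockdown cells, against 127, 108 and 87.1 in PBS knockdown cells. In control cells Mfap2 had 110, 121 and 128 with PE, against 504, 840 and 559 with PBS. Mfap5 had 154, 203 and 218 with PE, against 104, 92 and 107 with PBS. Eln fell by 1.56 ± 0.13 and Mfap2 by 2.01 ± 0.17, and Mfap5 rose by 0.95 ± 0.17 in knockdown cells (limma, adjusted p = 3.6e-08, 3.6e-08 and 2.2e-04).

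Fbn1, the fibrillin that forms the microfibril core, had 4382, 4203 and 4228 normalised read counts in PE knockdown cells, against 5337, 7035 and 6276 in PBS knockdown cells. It fell by 0.53 ± 0.10 (limma, adjusted p = 6.8e-04), and the groups did not overlap. Mfap4, an elastic fibre protein, was called lower, at 37.5, 25.9 and 37.7 normalised read counts in PE knockdown cells, against 62.6, 151 and 88.9 in PBS knockdown cells. It is uncertain, because exons of Mapk7 overlap it on the opposite strand, with a mean of 728 over all libraries for Mapk7 and 71.1 for Mfap4, and the sources used here do not say whether counting used strand. Genes that overlap the other members reached at most 4.17% of the member's mean (Islr2 beside Islr). The fibulins, which tie elastic fibres and basement membranes together, differed from each other. Fbln1 had 499, 441 and 414 in PE knockdown cells, against 753, 964 and 745 in PBS knockdown cells, and fell by 0.86 ± 0.12 (limma, adjusted p = 1.5e-05). Fbln2 had 9337, 8940 and 8613, against 8294, 11570 and 8747, with overlapping libraries and a log2 change of -0.07 ± 0.12 (limma, adjusted p = 0.69). Fn1, the adhesive glycoprotein fibronectin, had 38338, 32404 and 30666 in PE knockdown cells, against 22392, 41145 and 28736 in PBS knockdown cells. Its log2 change was 0.18 ± 0.17 (limma, adjusted p = 0.49), and 0.41 without PBS knockdown 2, the high library (adjusted p = 0.025).

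The enhancers of procollagen C-proteinase, which speed the removal of the C-terminal propeptide of fibrillar procollagens, also went apart. Pcolce had 5095, 5840 and 5580 normalised read counts in PE knockdown cells, against 7236, 9192 and 7291 in PBS knockdown cells. Pcolce2 (ENSMUSG00000015354.9, chromosome 9, 95637601 to 95698096, plus strand) had 165, 167 and 149, against 58.0, 67.8 and 59.6. Neither pair of groups overlapped. In control cells Pcolce had 5963, 5677 and 5540 with PE, against 6791, 6747 and 7114 with PBS, and Pcolce2 had 122, 137 and 145 with PE, against 52.2, 57.3 and 56.6 with PBS. Pcolce fell by 0.52 ± 0.10 and Pcolce2 rose by 1.36 ± 0.15 in knockdown cells (limma, adjusted p = 8.4e-04 and 1.8e-06).

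Ratios within a library bear on these paralogues without regard to scaling. Their level depends on transcript length, and only their difference between groups is compared. The log2 ratio of Mfap5 to Mfap2 was 0.22, 0.64 and 0.93 in PE knockdown cells, against -2.08, -2.46 and -2.55 in PBS knockdown cells, a difference of 2.96. The log2 ratio of Pcolce2 to Pcolce was -4.94, -5.12 and -5.22, against -6.94, -7.06 and -6.91, a difference of 1.88. That of Fbln2 to Fbln1 was 4.22, 4.34 and 4.38, against 3.46, 3.58 and 3.55, a difference of 0.78. In these pairs every PE library lay above every PBS library. The two-sided exact permutation test gave p = 0.10 for each, the smallest that 3 libraries against 3 allow, and 0.13 after Benjamini-Hochberg adjustment over 4 pairs. The ratio of Meox1 to Meox2 was 0.23 ± 0.11 in PE knockdown cells and -0.07 ± 0.70 in PBS knockdown cells (SD, n = 3 each), with overlapping libraries (exact permutation p = 0.50). The pairs were chosen with earlier results of these data known.

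**Figure D3:**
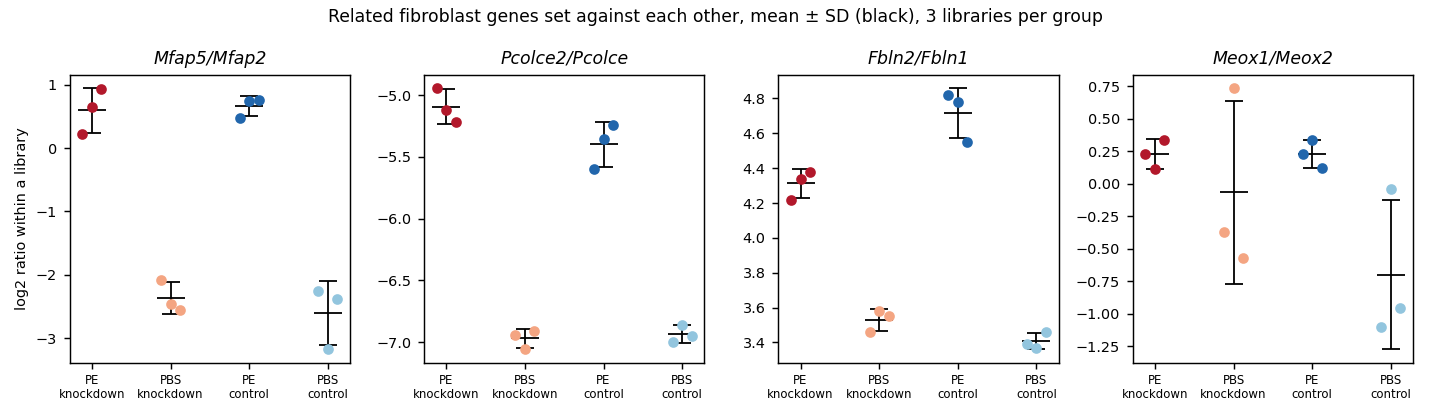
Log2 ratio within each library (y axis, points, own scale in each panel) of Mfap5 to Mfap2, Pcolce2 to Pcolce, Fbln2 to Fbln1 and Meox1 to Meox2, with mean and SD in black, for PE knockdown, PBS knockdown, PE control and PBS control cells from left to right. The first 3 ratios are higher in every PE library than in every PBS library, by 2.96, 1.88 and 0.78 in knockdown cells, and Meox1 to Meox2 overlaps there.

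Of the genes in the set, Ptn had the deepest fall with PE in knockdown cells, while Scara5 and Abca8a had lower log2 values in control cells, at -4.80 and -4.13, against -4.01 for Ptn. Ptn encodes pleiotrophin, a heparin-binding growth factor of developing tissues (ENSMUSG00000029838.12, chromosome 6, 36714929 to 36810220, minus strand). It had 88.8, 72.8 and 66.5 normalised read counts in PE knockdown cells, against 1287, 888 and 1261 in PBS knockdown cells, and 109, 90.3 and 92.3 in PE control cells, against 1361, 1886 and 1514 in PBS control cells. The mean in PE knockdown cells was 0.0664 times that in PBS knockdown cells, and the groups were far apart. Islr (ENSMUSG00000037206.16, chromosome 9, 58156268 to 58204306, minus strand), a leucine-rich repeat protein known as Meflin that marks resting mesenchymal cells, had 21.4, 23.9 and 17.9 in PE knockdown cells, against 148, 210 and 185 in PBS knockdown cells. In PE control cells it had 14, 20.2 and 23.9, against 220, 325 and 234 in PBS control cells. Ptn fell by 3.89 ± 0.16 and Islr by 3.04 ± 0.22 (limma, adjusted p = 4.8e-12 and 6.8e-09). Smoc2, a matricellular protein of the SPARC family, fell by 0.88 ± 0.14, and Sfrp1, a secreted Wnt antagonist, by 0.44 ± 0.09 (limma, adjusted p = 5.7e-05 and 8.6e-04). Cilp, a matrix protein of cartilage and fibrotic heart, and Clec3b (tetranectin) were too low to compare, at 0 to 3 and 0 to 5 reads per library.

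The cytoskeletal genes showed no common change. Gsn, the actin-severing protein gelsolin, had 1976, 2493 and 2478 normalised read counts in PE knockdown cells, against 4876, 5475 and 4116 in PBS knockdown cells, and fell by 1.06 ± 0.11 (limma, adjusted p = 9.8e-07). Vim, the intermediate filament of mesenchymal cells, had 36193, 38634 and 35672, against 38580, 41714 and 33032. The Vim groups overlapped, with a log2 change of -0.03 ± 0.12 (limma, adjusted p = 0.89). In control cells Vim had 42401, 39559 and 39048 with PE, against 30911, 34039 and 32452 with PBS, with no overlap and PE higher. Vim and Fbln2 were the 2 genes of 38 whose sign differed between knockdown and control cells. The other 36 had the same sign in both, 28 lower and 8 higher. These counts are a description only, since the genes count as chosen by the change in control cells. The share of all genes with the same sign in both was not counted.

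Of the metabolic and redox genes, 4 fell and 1 rose. Aldh3a1 (ENSMUSG00000019102.11, chromosome 11, 61207537 to 61218421, plus strand), an aldehyde dehydrogenase, had 11.8, 26.9 and 26.8 normalised read counts in PE knockdown cells, against 242, 232 and 242 in PBS knockdown cells. In PE control cells it had 18.3, 14.9 and 21.7, against 290, 294 and 311 in PBS control cells. All PBS values were far above all PE values. Cygb (ENSMUSG00000020810.6, chromosome 11, 116645595 to 116654313, minus strand), a globin of fibroblasts and stellate cells that handles oxygen and nitric oxide, had 47.1, 19.9 and 16.9 in PE knockdown cells, against 205, 277 and 273 in PBS knockdown cells. In PE control cells it had 36.6, 32.9 and 53.2, against 340, 397 and 328 in PBS control cells. PE knockdown 1 was the highest of its group and still below each PBS library. Aldh3a1 fell by 3.48 ± 0.24, Cygb by 3.26 ± 0.28 and the selenium-binding protein gene Selenbp1 by 2.90 ± 0.15 (limma, adjusted p = 3.6e-09, 4.5e-08 and 6.9e-11).

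Medag, a gene of adipogenic differentiation, fell by 0.58 ± 0.19 (limma, adjusted p = 0.030). The call was lost without PBS knockdown 1 or 3 or PE knockdown 2 or 3 (adjusted p = 0.055 to 0.16). Gpx3, the extracellular glutathione peroxidase, had 17780, 12309 and 11830 in PE knockdown cells, against 8990, 11282 and 9165 in PBS knockdown cells. It rose by 0.49 ± 0.16 (limma, adjusted p = 0.023). PE knockdown 1 was high, and without it, or without PBS knockdown 1 or 3, the call was lost (adjusted p = 0.070 to 0.14).

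Other gene lists show what moved beside these genes, while 14.0% of all genes tested were called lower and 13.4% higher. Of 18 collagens and small leucine-rich proteoglycans, 15 fell and 0 rose with PE in knockdown cells (median log2 -1.26), led by the proteoglycans Fmod at -3.03 and Aspn at -2.95. Their summed value was 51974 to 60331 in PE knockdown cells, against 91882 to 116553 in PBS knockdown cells. Of 14 partners of the elastic fibre and microfibril network, 4 rose and 8 fell (median -0.34). Emilin1, which sits between elastin and microfibrils, changed by -1.73 and the fibulin Fbln5 by -1.35, while Adamtsl2, a microfibril-associated protein, changed by 1.17. Of 12 genes of activated fibroblasts, 7 rose and 2 fell (median 1.45). The matricellular gene Thbs1 changed by 2.17 and the actin-binding Cnn1, also on the smooth muscle list, by 2.13. Those that fell were Itga11 at -1.44 and Cthrc1 at -1.26. Postn at -0.03 and Lrrc15 at -0.68 were not called, so the list did not move as one. The summed value of the 12 genes was 99149 to 103108 in PE knockdown cells, against 36460 to 39377 in PBS knockdown cells. Acta2, also on the smooth muscle list, had the highest mean in it, at 34361 and 16105. Of 11 further mesenchymal transcription factors, 0 rose and 4 fell (median -0.28), with Snai1 at -1.35, Twist2 at -0.82 and Snai2 at -0.69. Except for Postn and Lrrc15, the genes named here were called by limma. The lists were chosen with earlier results of these data known.

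**Figure D4:**
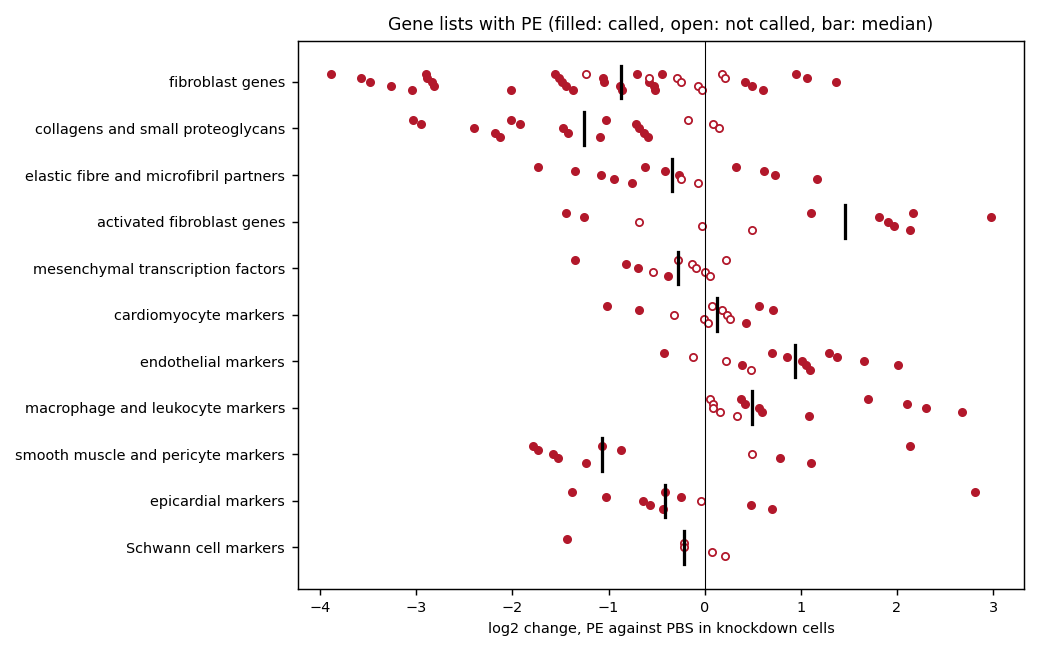
Log2 change with PE against PBS in knockdown cells (x axis) of every tested gene (points, filled where called) in the fibroblast gene set and in 10 other lists, with the median of each list as a bar. The fibroblast genes (median -0.87) and the collagens and small proteoglycans (-1.26) lie mostly left of 0, and the activated fibroblast genes (1.45) and endothelial markers (0.93) mostly right of it.

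Markers of the other cells of the heart are given in the same way. Beside them, 14.0% of all genes tested were called lower and 13.4% higher. Of 12 cardiomyocyte markers 3 rose, 2 fell and 7 were not called (median 0.13). Their sum was 743124 to 842935 in PE knockdown cells, against 572865 to 633623 in PBS knockdown cells. Myh6 had the highest mean in that sum, at 413023 in PE knockdown cells and 252906 in PBS knockdown cells. Of 14 endothelial markers 10 rose and 1 fell (median 0.93; sum 10309 to 12214, against 6299 to 8525), with Emcn at 2.01. Of 14 macrophage and leukocyte markers 9 rose and 0 fell (median 0.49; sum 3990 to 4738, against 3145 to 3295), with the complement gene C1qa at 2.67. Of 11 markers of smooth muscle cells and pericytes 3 rose and 7 fell (median -1.07), while the sum was higher with PE, at 41791 to 45346, against 27610 to 29749. Most of that sum was Acta2, with a mean of 34361 in PE knockdown cells and 16105 in PBS knockdown cells. The pericyte gene Rgs5 changed by -1.73. Of 11 epicardial markers 3 rose and 7 fell (median -0.41), while the sum was 12414 to 13610, against 10360 to 10856. Their log2 changes ran from -1.38 to 2.81, and the highest, that of the keratin Krt18, went against most of the list. Of 6 Schwann cell markers 5 were tested, of which 1 fell (median -0.22; sum 347 to 375, against 338 to 430), and Foxd3 was at 0 in every PE knockdown library. No other defining marker was at 0 throughout a group of knockdown cells. In PBS control cells, too, 1 Schwann cell marker was at 0 in every library. The part of these cells in the changes of the fibroblast genes was not tested.

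The second question was what the knockdown did to these genes. The comparisons of knockdown with control share libraries with those of PE with PBS. Their control libraries are those whose PE change chose the genes, so they are not independent of that choice. With PE, 5 of 38 genes were lower in knockdown than in control cells and 0 were higher, while 7.14% of all genes tested were lower and 4.57% higher. The median log2 change of the set was -0.23, against 0.01 for all genes. Knockdown libraries lay wholly below control libraries for 14 genes and wholly above for 3, against 16.1% and 14.4% of all genes. The 5 were Cd248, Abca8a, Tmem45a, Ddr2 and Fbn1, and each of them also fell with PE in knockdown cells. Ddr2 had 1124, 964 and 1011 normalised read counts in PE knockdown cells, against 1364, 1562 and 1569 in PE control cells. Fbn1 had 4382, 4203 and 4228, against 6299, 6106 and 5821. Both groups were clearly separate in both genes. The log2 change was -0.54 ± 0.10 for Ddr2 and -0.51 ± 0.10 for Fbn1 (limma, adjusted p = 0.0012 and 0.0026), and both calls held under every alternative tried. Cd248 had 364, 197 and 204, against 474, 410 and 475, and PE knockdown 1 was nearest to the control libraries. Its log2 change was -0.88 ± 0.23, that of Abca8a -0.85 ± 0.27 and that of Tmem45a -0.72 ± 0.19 (limma, adjusted p = 0.013, 0.047 and 0.017).

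The number of calls depended on single libraries. Without PE control 1, PE control 3 or PE knockdown 2 it was 2 in place of 5, and Cd248 was also lost without PE knockdown 3 (adjusted p = 0.072). Abca8a rested on 4 to 15 reads per library in PE, and it was lost on leaving out any 1 library except PBS knockdown 2, PE control 2 or PE knockdown 3 (adjusted p = 0.053 to 0.23). The other models bore on these calls as well. Abca8a was lost with edgeR, DESeq2, limma-voom and the replicate block (adjusted p = 0.14, 0.13, 0.26 and 0.055), Tmem45a with limma-voom (0.11) and Cd248 with DESeq2 (0.051). With only the PE libraries fitted, Abca8a and Tmem45a were lost (0.19 and 0.052). Other calls appeared when 1 library was left out. Thy1 was lower without PBS control 2 or PE knockdown 1 (adjusted p = 0.043 and 0.013), Cygb without PE knockdown 1 (0.0021) and Fbln2 without PBS knockdown 2 (0.009), and Scara5 was higher without PE control 2 (0.042). Without PBS knockdown 2, PBS control 2 and PE knockdown 1 together, and with PBS knockdown 1 kept although it stood farther off than PBS control 2, 13 genes were lower and 1, Aldh3a1, was higher. Osr1 lay just outside the threshold, at 318, 284 and 260 in PE knockdown cells, against 421, 376 and 398 in PE control cells (log2 -0.47 ± 0.15, limma, adjusted p = 0.051), and passed in 11 of the alternatives.

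With PBS, 6 of 38 genes were lower in knockdown than in control cells and 1 was higher, while 3.21% of all genes tested were lower and 1.36% higher. The median of the set was -0.31, against 0.00 for all genes. Other values differed between the same libraries. The mitochondrial share of reads was 4.33% to 7.55% in PBS knockdown cells, against 8.19% to 10.7% in PBS control cells, with no overlap. The median was -0.33 for collagens and small proteoglycans, -0.33 for Schwann cell markers and -0.25 for cardiomyocyte markers. The medians of the remaining gene lists ran from -0.17 for macrophage and leukocyte markers to 0.06 for epicardial markers. Of the cardiomyocyte markers, 0 of 12 were called. Their sum was 572865 to 633623 in PBS knockdown cells, against 693866 to 786091 in PBS control cells. With PE, all 12 cardiomyocyte markers had a log2 value below 0 (median -0.29). Their sum was 743124 to 842935 in PE knockdown cells, against 907985 to 1226629 in PE control cells. Myh6 had the highest mean in these sums, at 252906 in PBS knockdown cells and 323169 in PBS control cells. With PE it had 413023 in knockdown cells and 604630 in control cells. The part of these in the knockdown values of the fibroblast genes was not tested. Eln, the tropoelastin gene, had 1844, 2398 and 2022 normalised read counts in PBS knockdown cells, against 3207, 4216 and 3102 in PBS control cells. Ddr2 had 1509, 1700 and 1843, against 2420, 2328 and 2465. Steap4 had 160, 143 and 176, against 300, 316 and 378. In each of the 3 genes the groups were well apart. The log2 change was -0.74 ± 0.13 for Eln, -0.52 ± 0.10 for Ddr2 and -1.04 ± 0.19 for Steap4 (limma, adjusted p = 0.0017, 0.0042 and 0.0027). Abca8a and Meox2, with the values given above, changed by -1.40 ± 0.27 and -1.19 ± 0.24 (limma, adjusted p = 0.0041 and 0.0067). Medag had 71.6, 58.7 and 90.8, against 124, 143 and 115, a change of -0.80 ± 0.19 (limma, adjusted p = 0.020), which was lost without PBS control 1 or 2 or PBS knockdown 1 or 2 (adjusted p = 0.052 to 0.092). Sfrp1 was the gene called higher, with 1977, 1994 and 1857 in PBS knockdown cells, against 1507, 1627 and 1484 in PBS control cells. Its change of 0.34 ± 0.09 (limma, adjusted p = 0.034) did not pass without PBS control 1 or 3, PBS knockdown 1, PE control 2 or PE knockdown 2 or 3 (adjusted p = 0.052 to 0.15). Without PBS knockdown 2, Cd248 and Fbn1 were also lower (adjusted p = 0.025 and 0.018), as was Dpep1 without PBS knockdown 1 (0.048). Abca8a and Ddr2 were called lower in both PE and PBS.

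**Figure D5:**
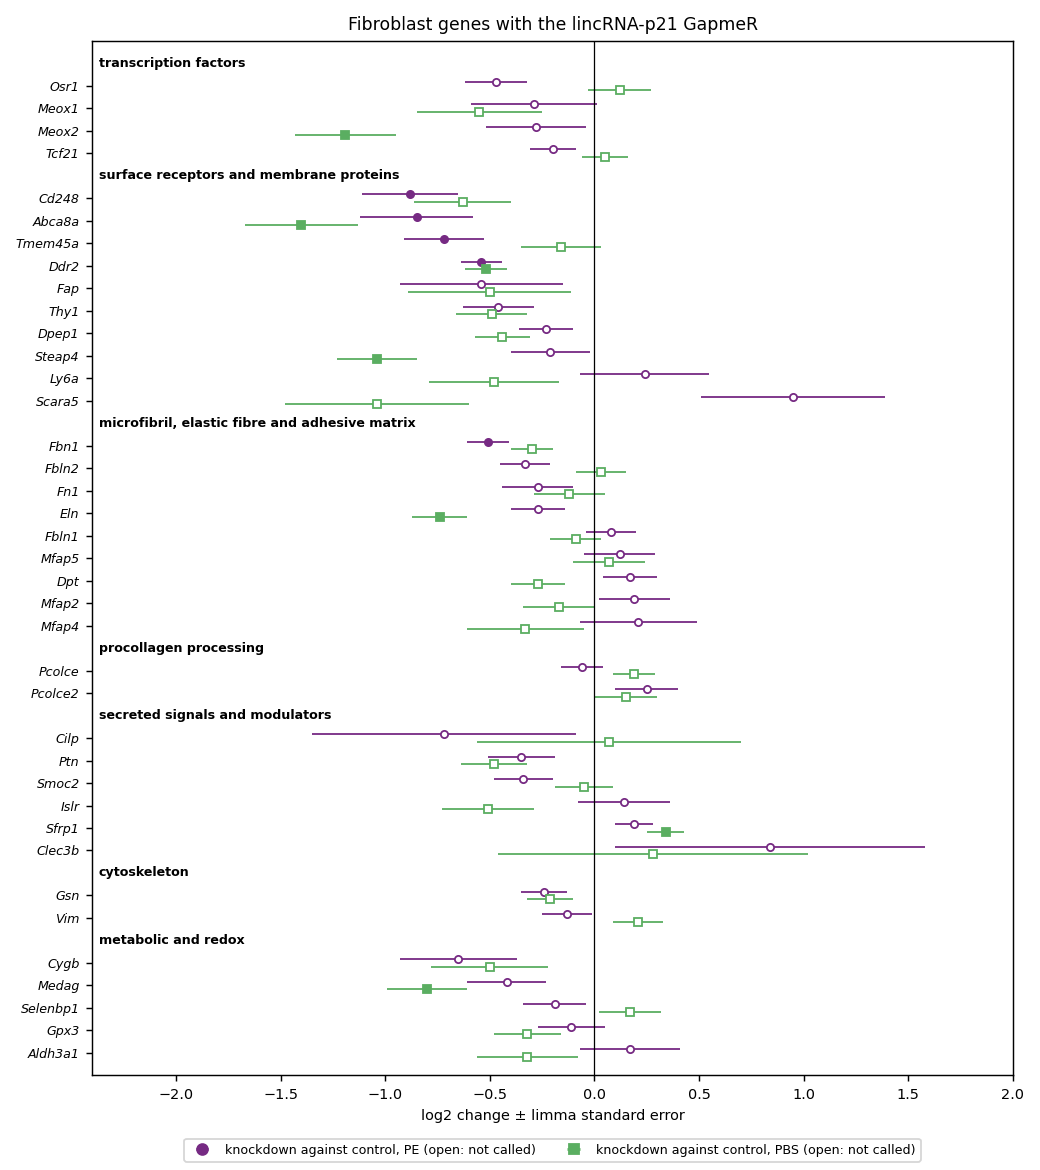
Log2 change in knockdown against control cells (x axis, ± limma standard error) of all 38 genes, ordered by role, with PE (purple circles) and with PBS (green squares), open where not called. Filled points stand at -0.54 and -0.52 for Ddr2, and Sfrp1 in PBS at 0.34 is the filled point right of 0.

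Long and short genes are set side by side for the knockdown calls. With PE, 4 of the 14 genes of the set that span at least 50 kb were called lower (28.6%), against 1 of the 24 shorter ones (4.17%). Over all genes tested it was 23.0% of 4700 long genes and 2.80% of 16976 shorter ones. With PBS it was 3 of 14 (21.4%) and 3 of 24 (12.5%) in the set, and 10.7% and 1.17% over all genes. The median log2 change of the set was -0.34 for long genes and -0.16 for shorter ones with PE, and -0.25 and -0.32 with PBS. The difference between long and short members was not tested. The 50 kb limit was chosen after these values were seen, and the part of gene length in the calls was not tested. In the other lists, the knockdown in PE called 6 of 12 activated fibroblast genes lower, 6 of 18 collagens and small proteoglycans, 7 of 14 elastic fibre partners, 4 of 11 genes of smooth muscle cells and pericytes, 2 of 11 mesenchymal transcription factors and 2 of 14 endothelial markers. It called 1 of 12 cardiomyocyte markers, 1 of 11 epicardial markers, 0 of 14 macrophage and leukocyte markers and 0 of 5 Schwann cell markers lower, beside 7.14% of all genes tested, and 1 elastic fibre partner was higher.

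Whether PE acted differently on these genes with and without lincRNA-p21 was asked with the interaction. The interaction subtracts the PE change of control cells, by which the genes count as chosen, so it is no independent test for them and nothing rests on it here. None of the 38 genes was called (0 by limma, 0 by edgeR, 0 by DESeq2 and 0 by limma-voom), while 0.0550% of all genes tested were called higher and 0 lower by limma. The smallest adjusted p was 0.34 with limma. At an unadjusted p below 0.05 limma had 7 of the 38, edgeR and DESeq2 had 9 each, and limma-voom had 8. The median standard error of the 38 interactions was 0.24 on the log2 scale. The farthest values were 1.98 ± 0.63 for Scara5, which rests on 0 to 4 reads per PE library, 0.91 ± 0.35 for Meox2 and 0.84 ± 0.27 for Steap4 (limma standard error). With PBS knockdown 2, PBS control 2 and PE knockdown 1 left out together, Osr1 was called (log2 -0.75, limma, adjusted p = 0.049).

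The genes span a wide range of levels, compared here as normalised read counts per kb of exon. In PE knockdown cells the highest were Vim at 7766 and Gpx3 at 7707, then Fn1 at 2893, Pcolce at 1440 and Fbln2 at 1407. Of these only Pcolce fell with PE, and Gpx3 rose. The genes with the deepest falls stood at low to middle levels in PBS knockdown cells, where Ptn had 333, Aldh3a1 123, Cygb 108, Islr 67.3 and Abca8a 12.7. In PE knockdown cells these were at 22.1, 11.2, 12.0, 7.84 and 0.915. Collagen receptor Ddr2 stood at 111 with PE and 182 with PBS in knockdown cells. Cilp, Clec3b and Scara5 were the lowest in PE knockdown cells, at 0.156, 2.00 and 0.502, together with Abca8a.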

How the data were processed

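Polyadenylated RNA of 12 libraries was sequenced as paired reads of 100 bases, per the labels' protocols. STAR, SAMtools and featureCounts, with the build GRCm38.p6, are named per the submitters' processing notes; their versions, the annotation release and any use of strand are not given in the sources used. The signal deposited by the authors is a read count divided by 1 size factor per library (0.921 to 1.11), as 100% of values were whole multiples of a step (tolerance 0.001). No column lacked a sample (0).

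Because values were scaled, limma 3.58.1 in R 4.3.3 was fitted to log2(value + 1), with 4 group means, all 12 libraries, a trended prior and genes with a mean of at least 1; log2 changes are on that scale, which understates changes of low genes. Two-sided p-values were adjusted by Benjamini-Hochberg over all 21799 genes, with a threshold of 0.05. Alternatives included edgeR 4.0.16 and DESeq2 1.42.0 on recovered reads, which called 6024 and 6045 genes with PE in knockdown cells, against 5967. The fit was also run on simulated reads, in which low genes were given no change and no library stood apart. That run cannot speak for calls that rest on low reads or on single libraries.

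The members and lists were chosen with earlier results of these data known. Library values are given for the 3 markers, the 5 called genes with the largest fall and rise in each tested comparison and 4 paralogue pairs; for other lists, up to 3 called genes by size of change with PE in knockdown cells. One gene that this rule names is not reported here. Others are named to account for every member, because a call sat near the threshold, or to show genes that moved against the rest of a list or held much of its sum. Promoters came from RefSeq (GRCm38.p6). Gene positions came from GENCODE M21.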

Additional observations from a re-analysis of the deposited data

How the results depend on the processing

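Of 924 values of called members under an alternative, 0 changed sign; of 2370 of uncalled members, 74 did. With the knockdown in PE, 13 members were lower and 1 higher without the 3 distant libraries, against 5 and 0, and leaving out 1 library gave 2 to 7 and 0 to 1. With the knockdown in PBS, 0 were higher, against 1, with only the libraries compared and with the replicate block, and 0 to 1 on leaving out 1 library; DESeq2 called 10 lower, against 6, and leaving out 1 library gave 5 to 7. For PE in knockdown cells, leaving out 1 library gave 23 to 25 lower and 4 to 7 higher. The interaction gave 1 member lower without the 3 distant libraries. Residuals of same-numbered libraries correlated between -0.435 and 0.409 over 18 pairs. Libraries of different number were not compared, so this cannot decide whether replicate numbers pair the libraries. The replicate block gave 24 lower and 5 higher with PE in knockdown cells. Over all genes, the knockdown in PE called 2553, against 4672 without the 3 distant libraries, 1701 without PE control 2 and 1671 without PE knockdown 2. The knockdown in PBS called 997, against 392 with only the libraries compared, 1865 without the distant ones and 510 to 1181 on leaving out 1. The interaction called 12, against 124 with DESeq2, 143 without the distant libraries and 3 to 22 on leaving out 1. Rescaling to equal totals moved the median of all genes by -0.130 with PE in knockdown cells, and 30.7% of calls were then higher, against 48.9%, with 25 members lower and 4 higher; the share was 57.7%, against 39.1%, with the knockdown in PE and 49.0%, against 29.8%, in PBS. The causes were not tested. Low reads limit Cilp, Clec3b, Scara5 and Abca8a.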
